A study of Mus musculus with 5 samples.

Results

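The genes examined here were the Notch receptors *Notch1*, *Notch2*, *Notch3* and *Notch4*, the ligands *Jag1*, *Jag2*, *Dll1* and *Dll4*, and the target genes *Hes1* and *Hey1*, in RNA sequencing of innate lymphoid cells sorted from mouse skin. They were chosen by name, as the 10 of 47729 genes counted whose symbol is one of these. The rule used no measured value, but the list was made with earlier results of these data known. All 10 passed the filter on low counts. Sorted dermal cells of 3 WT pools (pools 5, 6 and 13) were compared with cells of 2 pools labelled *Rag1*-/- (pools 2 and 7), all from female C57BL/6 mice of 8 to 13 weeks. The germline *Rag1*-/- mouse lacks the recombinase that mature T and B cells need to form, and both are absent from it. The sort took viable CD45+ CD90hi cells without CD2 or CD3 signal, and the cells were processed fresh, with no stimulation in culture. Each library held cells of several mice, 30 WT and 16 *Rag1*-/- mice in all by the labels and a larger number of *Rag1*-/- mice by the study's methods. Error values and tests therefore describe the spread between pools. The cell type label reads type 2 innate lymphoid cells (ILC2) for WT and type 3 for *Rag1*-/-, whereas the study calls the cells of both genotypes dermal ILC2s.

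The libraries held 32939428 to 39477243 counts in WT and 8050562 (pool 2) and 38922750 counts (pool 7) in those labelled *Rag1*-/-. Levels are given in CPM, counts scaled to library size with edgeR's TMM method. A count of 3, taken as the smallest that the depth can show, was 0.369 CPM in *Rag1*-/- pool 2 and 0.0763 to 0.0894 CPM in the others, which covers counting error only. *Rag1* itself was seen with 4, 0 and 5 counts in WT and with 5 and 48 in the libraries labelled *Rag1*-/-, so that its counts were not lower there. A count over the whole gene does not show whether the transcript was intact. The genotypes here are those of the labels. All 5 libraries held transcripts that mark cells outside the gate. The 8 basal keratinocyte markers summed to 15577 to 18303 CPM in WT and to 5121 and 8533 CPM in *Rag1*-/- pools 2 and 7. The 12 pan-leukocyte genes summed to 735 to 1854 CPM in WT and to 5776 and 5358 CPM in the libraries labelled *Rag1*-/-. ILC2 markers such as *Gata3* and *Rora* were present in every library, and their 12 genes summed to 1015 to 2116 CPM in WT against 4881 and 3051 CPM. Of these 12, 4 were called higher and 11 were higher without overlap. The 7 genes of the ILC3 and type 17 list, led by *Il1r1*, summed to 152 to 164 CPM in WT and to 386 and 267 CPM. *Il1r1* itself did not rise, at 119, 92.9 and 112 CPM in WT and 97.7 and 77.2 CPM in *Rag1*-/- pools 2 and 7. Of the 7, 4 were called higher and 6 were higher without overlap. Both lists thus moved with genotype, as *Hey1* did. In bulk RNA of this kind, fewer cells of a type and less RNA per cell cannot be told apart.

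Notch receptors are membrane proteins that are cut when a ligand of the Jagged or Delta-like family on a neighbouring cell binds them. The part of the receptor inside the cell then moves to the nucleus, joins the DNA-binding protein RBPJ and switches on genes of the Hes and Hey families, whose products repress transcription. In skin the pathway is known from the differentiation of keratinocytes and from vessels, and in lymphoid cells it takes part in T cell commitment and in the development and function of innate lymphoid cells.

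The promoters of *Notch1*, *Notch2* and *Notch3* are shown because these 3 receptors carried most receptor counts and the groups of *Notch1* and *Notch3* did not overlap while those of *Notch2* did. Bases upstream of the start annotated in RefSeq were taken on GRCm38.p6. They are written 5′ to 3′ on the strand of the gene, without bases that lie in an annotated exon. That start need not be the end of the gene as bounded below. For *Notch1* the stretch lies inside those bounds, upstream of an internal start. Capitals mark the N-box, a 6-base element with the letters CACNAG on either strand that Hes-family repressors are known to bind.
Notch1, chr2:26503825-26504072, minus strand: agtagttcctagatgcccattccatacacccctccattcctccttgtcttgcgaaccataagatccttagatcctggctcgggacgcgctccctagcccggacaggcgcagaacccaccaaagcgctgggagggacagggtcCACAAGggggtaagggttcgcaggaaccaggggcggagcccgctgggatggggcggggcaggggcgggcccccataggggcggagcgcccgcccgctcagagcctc
Notch2, chr3:98013288-98013526, plus strand: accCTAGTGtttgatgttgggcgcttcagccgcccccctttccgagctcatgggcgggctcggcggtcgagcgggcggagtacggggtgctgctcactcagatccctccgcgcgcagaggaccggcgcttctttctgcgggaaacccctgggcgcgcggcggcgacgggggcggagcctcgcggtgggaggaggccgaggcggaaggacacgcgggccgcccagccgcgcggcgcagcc
Notch3, chr17:32166891-32167140, minus strand: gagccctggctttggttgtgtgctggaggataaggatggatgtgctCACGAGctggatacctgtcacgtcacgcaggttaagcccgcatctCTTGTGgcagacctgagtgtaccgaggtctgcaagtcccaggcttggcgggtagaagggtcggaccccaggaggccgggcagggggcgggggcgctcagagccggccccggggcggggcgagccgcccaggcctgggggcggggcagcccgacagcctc

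*Notch1* held 1 N-box on its own strand, 108 to 103 bases before the RefSeq start. *Notch2* held 1 on the opposite strand, 247 to 242 bases before its RefSeq start. These distances include the exon bases left out above, 2 for *Notch1* and 11 for *Notch2*. The *Notch3* window held 1 on each strand, at 204 to 199 and 159 to 154 bases. The target genes *Hes1* and *Hey1* had no window, so the counts of windows below cover receptors and ligands only. Of the 8 members with a RefSeq promoter window, 4 held an N-box within 250 bases (the other was *Dll4*), and 36.7% of all 32851 windows of this length held one. The core letters of the RBPJ site, TGGGAA on either strand, were found in 0 of 9 windows of the members and in 21.6% of all windows. The E-box CACGTG, which reads the same on both strands and to which Hey proteins are known to bind, was in 6.02% of all windows and in 0 of the 9. Over all 250 bases, the *Jag2* window and both *Dll1* windows lay in annotated exons. Such matches of letters in a short window say nothing of binding.

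*Hey1* rose in the libraries labelled *Rag1*-/-, with 3.21 times its WT mean CPM under TMM scaling, though not when libraries were scaled on leukocyte genes. It was the only one of the 10 members to pass the test. None passed as lower. A gene was called where edgeR's quasi-likelihood test gave an adjusted p under 0.05 and the log2 fold change, *Rag1*-/- over WT, was above 1 in size. This log2 ratio is called the change below and is given with its standard error (SE). By this rule 5.73% of the 19011 genes tested were called, 3.57% higher and 2.16% lower. With 1 of 10 members called, the count is near what all genes gave. At an unadjusted p under 0.05 in edgeR were 3 members, *Hey1* higher and *Jag2* and *Notch3* lower, beside 5022 of the 19011 genes in either direction. DESeq2 called *Jag2* and *Notch3* as lower and *Hey1* as higher. DESeq2 called 12.9% of all genes, 6.38% higher and 6.52% lower. The median log2 fold change of the members was -0.44, against 0.02 over all genes tested. Libraries of the 2 groups did not overlap for 4 members, *Hey1* above and *Notch1*, *Notch3* and *Jag2* below WT. Over all genes 45.5% did not overlap, 23.1% higher and 22.4% lower. Among 3 libraries against 2 there are 10 splits, so that an exact permutation test of 1 gene cannot reach 0.05.

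**Figure D1:**
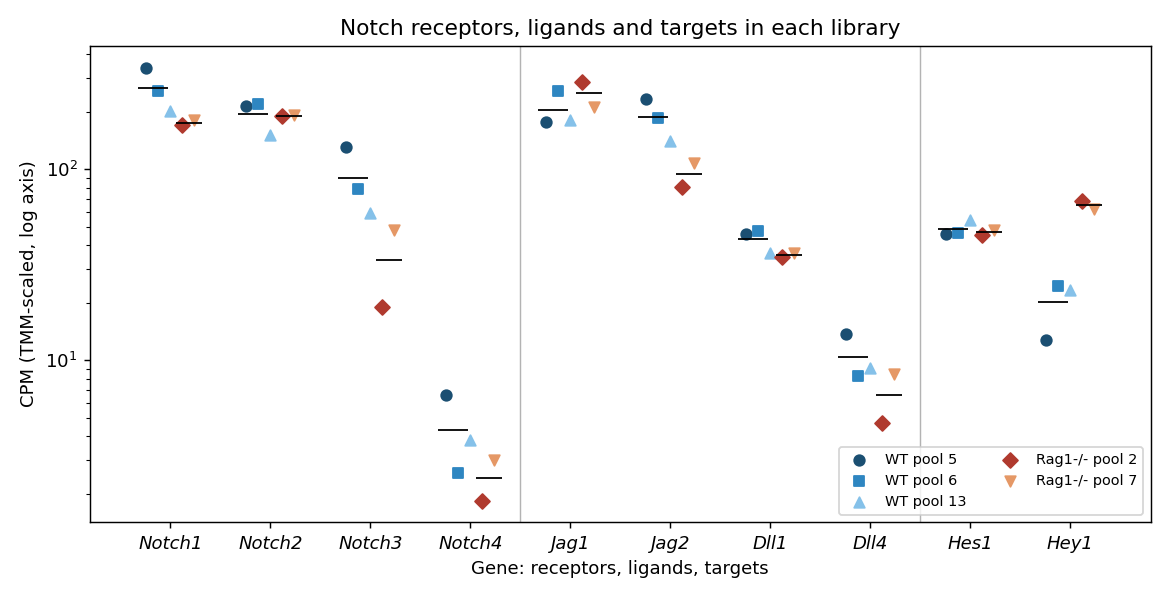
CPM of the 10 Notch genes (log axis) in each of the 3 WT libraries (blue) and the 2 libraries labelled Rag1-/- (red and orange), with a bar at the mean of each group. On this scale Hey1 sits at 12.7 to 24.5 CPM in WT and at 61.7 and 67.9 CPM in the libraries labelled Rag1-/-, whereas Hes1 and Notch2 overlap between the groups.

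Of the receptors, *Notch1* and *Notch3* lay below WT in both libraries labelled *Rag1*-/- without passing the test, and *Notch2* and *Notch4* overlapped. *Notch1* (chromosome 2 of GRCm38, 26457903 to 26516663, minus strand), the receptor best known from T cell commitment, had 340.4, 257 and 202 CPM in WT pools 5, 6 and 13 and 169.8 and 180.3 CPM in *Rag1*-/- pools 2 and 7. Both libraries labelled *Rag1*-/- were below the lowest WT library, by less than the WT libraries differed among themselves. The change was -0.61 ± 0.26 (log2 ± SE, adjusted p = 0.194 by edgeR). *Notch2* (chromosome 3, 98013527 to 98150361, plus strand), a receptor widely present in skin and blood cells, had 214, 219 and 151 CPM in WT and 189.5 and 192 CPM. The pools labelled *Rag1*-/- lay inside the WT range, and the change was -0.03 ± 0.23 (log2 ± SE, adjusted p = 0.954 by edgeR).

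*Notch3* (chromosome 17, 32120820 to 32166880, minus strand), known from mural cells of vessels and from differentiating keratinocytes, had 131, 79.0 and 58.7 CPM in WT and 19.0 and 48.1 CPM in *Rag1*-/- pools 2 and 7. Pool 7 was close to WT pool 13, and pool 2 was far below. The group means were 89.5 ± 37.2 CPM (SD, n = 3) and 33.5 ± 20.6 CPM (SD, n = 2), with a change of -1.40 ± 0.48 (log2 ± SE, adjusted p = 0.122 by edgeR). Without *Rag1*-/- pool 7 the value was -2.30 and was called (adjusted p = 0.0446, edgeR), and without pool 2 it was -0.89 and was not. Each of these fits has 1 library labelled *Rag1*-/-, and its spread comes from the WT libraries only. *Notch4* (chromosome 17, 34564268 to 34588503, plus strand), a receptor of endothelial cells, was the lowest member with 6.56, 2.57 and 3.81 CPM in WT and 1.85 and 3.01 CPM. The value in pool 2 stood on 15 counts, the groups overlapped, and the change was -0.80 ± 0.50 (log2 ± SE, adjusted p = 0.367 by edgeR).

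Of the ligands, *Jag1* had a fold change above 0 and *Jag2* one below, and neither passed the test. *Jag1* (chromosome 2, 137081456 to 137116644, minus strand), the Jagged ligand found in most tissues, had 177, 255 and 182 CPM in WT and 288 and 213 CPM in *Rag1*-/- pools 2 and 7. Pool 7 lay inside the WT range, and the change was 0.29 ± 0.25 (log2 ± SE, adjusted p = 0.523 by edgeR). *Jag2* (chromosome 12, 112908590 to 112929495, minus strand), a Jagged ligand of basal epithelium, had 234, 185 and 141 CPM in WT and 80.8 and 107 CPM. Both libraries labelled *Rag1*-/- were below all WT libraries, at means of 94.0 ± 18.8 CPM (SD, n = 2) against 187 ± 46.5 CPM (SD, n = 3). A change of -0.99 ± 0.27 (log2 ± SE, adjusted p = 0.0767 by edgeR) stayed short of both thresholds, while DESeq2 called it (-1.02, adjusted p = 0.0101).

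The Delta-like ligands overlapped between the groups. *Dll1* (chromosome 17, 15367354 to 15376872, minus strand), a ligand of Notch2 and other receptors, had 45.7, 47.5 and 36.4 CPM in WT and 34.7 and 36.4 CPM in *Rag1*-/- pools 2 and 7. Pool 7 was level with WT pool 13, and the change was -0.28 ± 0.20 (log2 ± SE, adjusted p = 0.435 by edgeR). *Dll4* (chromosome 2, 119325784 to 119335962, plus strand), the Delta-like ligand of sprouting vessels and of the thymus, had 13.8, 8.28 and 9.12 CPM in WT and 4.68 and 8.47 CPM. *Rag1*-/- pool 2 was the lowest, with 38 counts, and pool 7 lay inside the WT range. Its change was -0.64 ± 0.38 (log2 ± SE, adjusted p = 0.335 by edgeR).

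Of the target genes, *Hey1* rose and *Hes1* did not pass the test. *Hes1* (chromosome 16, 30064384 to 30067796, plus strand), a repressor that Notch induces in many cell types, had 45.7, 46.2 and 54.3 CPM in WT and 45.4 and 48.1 CPM in *Rag1*-/- pools 2 and 7. It spread least of the 10 in WT relative to its level, and the groups overlapped at 48.8 ± 4.84 CPM (SD, n = 3) and 46.8 ± 1.87 CPM (SD, n = 2). The change was -0.06 ± 0.19 (log2 ± SE, adjusted p = 0.884 by edgeR). *Hey1* (chromosome 3, 8663359 to 8667256, minus strand), a related repressor best known from vessels and heart, had 12.7, 24.5 and 23.4 CPM in WT and 67.9 and 61.7 CPM. The libraries labelled *Rag1*-/- lay far above all WT libraries, and WT pool 5 was the lowest of the 5. The means were 20.2 ± 6.50 CPM (SD, n = 3) and 64.8 ± 4.38 CPM (SD, n = 2), with a change of 1.68 ± 0.30 (log2 ± SE, adjusted p = 0.0322 by edgeR). The value rested on 500, 961 and 785 counts in WT and on 551 and 2316 counts. It lay at percentile 95.5 of the fold changes of all genes.

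The *Hey1* call depended on which libraries were in the fit. When any 1 WT library or *Rag1*-/- pool 2 was left out, 0 of all genes tested passed the adjusted test in edgeR, with 3521 to 5200 genes at an unadjusted p under 0.05. *Hey1* stayed higher by 1.43 to 1.84 on the log2 scale over the 5 omissions, with adjusted p-values of 0.0369 to 0.112, the smallest without *Rag1*-/- pool 7. In that omission it was still called (1.69), and 814 of all genes were called higher and 1595 lower.

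Levels of different genes were compared per length, as TPM over the exons annotated for each gene. In WT *Jag1* was the highest at 123 ± 29.3 TPM, followed by *Jag2* at 93.8 ± 23.1, *Hes1* at 83.7 ± 7.60, *Notch1* at 65.5 ± 16.8, *Notch2* at 63.3 ± 13.05, *Notch3* at 38.7 ± 15.7 and *Dll1* at 35.9 ± 5.44 TPM (SD, n = 3). Each of these neighbours overlapped with the next over the 3 libraries. *Hey1* at 21.7 ± 7.21, *Dll4* at 9.41 ± 2.55 and *Notch4* at 1.87 ± 0.858 TPM came last, and none of the 3 overlapped with the gene before it. In the libraries labelled *Rag1*-/- the order began with *Jag1* at 147 ± 41.0 and *Hes1* at 77.9 ± 2.25 TPM (SD, n = 2). *Hey1* came next at 67.6 ± 9.20 TPM and overlapped with *Notch2* at 60.1 ± 3.68 TPM. *Jag2* at 45.6 ± 6.002 and *Notch1* at 41.8 ± 1.10 TPM overlapped with each other, and *Dll1*, *Notch3*, *Dll4* and *Notch4* followed at 28.6 ± 0.99, 13.8 ± 7.69, 5.72 ± 1.96 and 1.01 ± 0.276 TPM.

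Ratios of counts between members of 1 library do not depend on how libraries are scaled. *Hey1* had 0.278, 0.530 and 0.431 counts per count of *Hes1* in WT pools 5, 6 and 13 and 1.49 and 1.28 in *Rag1*-/- pools 2 and 7, without overlap. *Jag2* had 1.32, 0.726 and 0.775 counts per count of *Jag1* in WT and 0.281 and 0.505. The balance of the Jagged ligands thus lay lower for *Jag2* in both libraries labelled *Rag1*-/-. *Notch3* had 0.611, 0.361 and 0.389 counts per count of *Notch2* in WT and 0.100 and 0.251. *Notch1* had 1.59, 1.17 and 1.34 counts per count of *Notch2* in WT and 0.896 and 0.941. Both receptors were thus lower against *Notch2* without overlap, and *Notch3* was also lower against *Notch1*, at 0.291 to 0.384 in WT and 0.112 and 0.267. *Dll4* against *Dll1* and *Notch4* against *Dll4* overlapped between the groups. No test was run on these ratios, and the share of all gene pairs without overlap was not computed. *Hey1*, *Notch1*, *Notch3* and *Jag2* already did not overlap in CPM, as 45.5% of all genes tested did not. Their ratios are therefore not separate from that result.

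**Figure D2:**
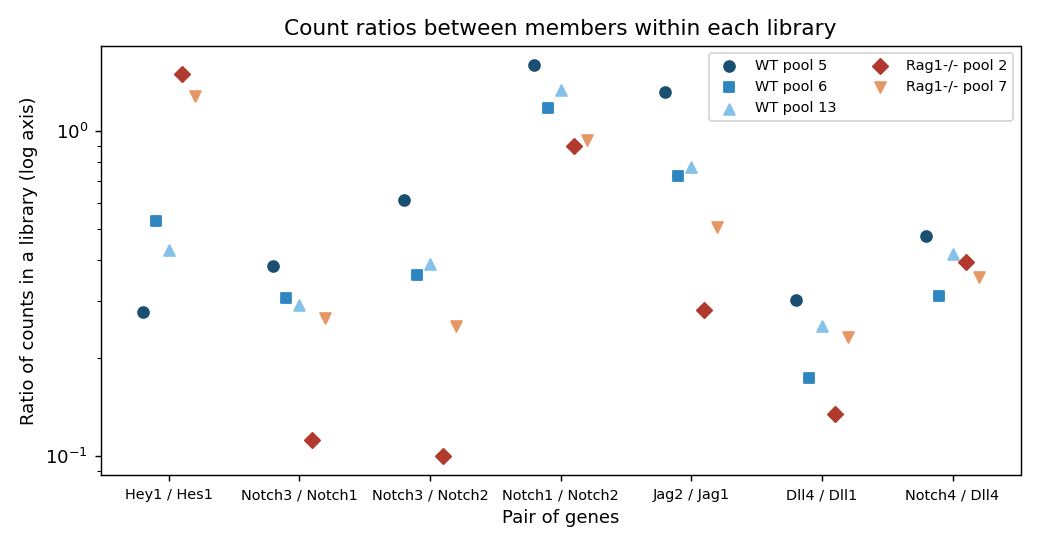
Ratio of the counts of 2 Notch genes within a library (log axis) for 7 pairs, in 3 WT libraries (blue) and 2 libraries labelled Rag1-/- (red and orange). Hey1 over Hes1 is 0.278 to 0.530 in WT and 1.28 and 1.49 in the libraries labelled Rag1-/-, and the last 2 pairs overlap.

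Marker lists of other cell types moved with several members. Likeness was measured as the root mean square difference in log2 CPM, each profile centred on its mean over the 5 libraries, between a member and the mean centred profile of a list. *Hey1* was closest to the pan-leukocyte list at 0.17. Of the 12 genes in that list, 12 were higher without overlap, the most abundant being *Ptprc* (CD45). *Hey1* had 17.3, 13.2 and 12.98 counts per 1000 counts of the list in WT and 11.7 and 11.5 in *Rag1*-/- pools 2 and 7. Per leukocyte count, *Hey1* thus lay lower in the libraries labelled *Rag1*-/-, without overlap. On that scale all 10 members and 85.9% of the 19011 genes tested did so.

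*Dll4* was closest to the endothelial list at 0.06, and so was *Notch4* at 0.18 and *Notch1* at 0.33. The 10 endothelial markers, led by *Pecam1*, summed to 764, 431 and 464 CPM in WT and to 234 and 500.1 CPM, with 0 of 10 called in edgeR. *Dll4* had 17.99, 19.2 and 19.6 counts per 1000 endothelial counts in WT and 20.0 and 16.9 in the libraries labelled *Rag1*-/-. The list was the closest to *Dll4* over these same libraries, so a narrow range on this scale is no separate result. *Notch3* at 0.38 and *Jag2* at 0.31 were closest to the basal keratinocyte list, which is led by *Krt14* and of which 5 of 8 genes were called lower and 8 of 8 were lower without overlap. *Jag2* was as close to the endothelial list at 0.31. Per 1000 basal keratinocyte counts, *Jag2* had 12.8, 11.3 and 9.04 counts in WT and 15.8 and 12.6 in *Rag1*-/- pools 2 and 7. *Notch3* had 7.15, 4.82 and 3.77 counts on that scale in WT and 3.70 and 5.64. The 9 suprabasal markers, led by *Krt10*, summed to 17082, 11054 and 8262 CPM in WT and to 784 and 6704 CPM, and pool 2 was the lowest of the 5, as for *Notch3*. *Hes1*, *Dll1* and *Notch2* were closest to the fibroblast list at 0.23, 0.39 and 0.42, and *Jag1* to the T cell list at 0.37. *Dll1* was as close to the melanocyte list at 0.39. Fibroblast markers, led by *Col1a2*, summed to 7466 to 13070 CPM in WT and to 7961 and 8196 CPM. T cell markers summed to 34.1 to 81.7 CPM in WT and to 244 and 216 CPM, with *Cd8a* at 0 to 31 counts per library. *Trbc1* and *Cd3g* carried most of this difference. Of the 8 markers 4 were higher without overlap, *Cd4* and *Cd28* among them. *Cd4* had 1.98 to 3.70 CPM in WT against 5.30 and 5.19 CPM, and *Cd28* 0.178 to 2.32 CPM against 3.69 and 2.45 CPM. *Cd3e* overlapped at 5.39 to 8.02 CPM in WT against 9.36 and 7.69 CPM, and *Cd5* was lower, at 1.97 to 3.53 CPM against 1.35 and 0.692 CPM. The share of these cell types in the results was not tested.

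**Figure D3:**
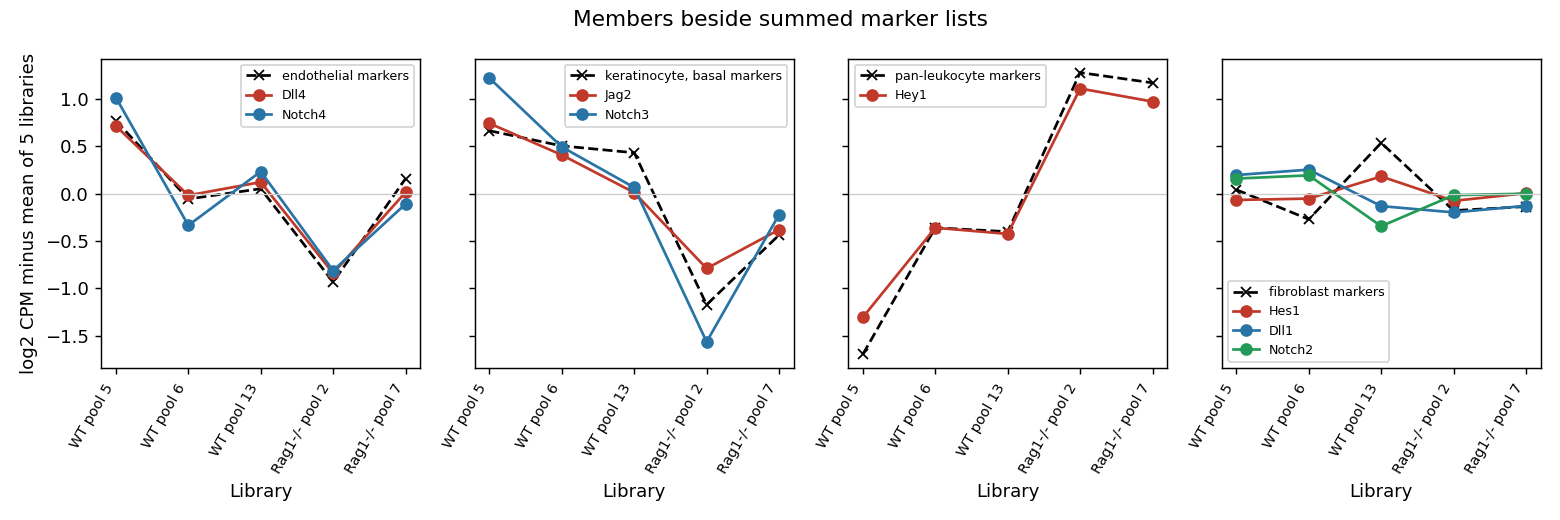
log2 CPM of each gene or summed marker list, minus its mean over the 5 libraries, for the endothelial, basal keratinocyte, pan-leukocyte and fibroblast lists (black crosses) and the Notch genes closest to them (coloured points), with lines only to guide the eye. Hey1 follows the pan-leukocyte sum and Dll4 the endothelial sum in all 5 libraries.

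Over the same 5 libraries, the single genes with the profile most like that of *Hey1* were *B4galnt1*, *Smim10l2a* and *Arhgap15* (0.08 to 0.09). *Notch4* was nearest to *Sox17*, *Ptprb* and *Wdr86* (0.12 to 0.13), and *Dll4* to *Arrdc4*, *Cdc42ep5* and *Wdr86* (0.03 to 0.06). *Notch3* was nearest to *Mrgprb9-ps*, *Hs3st6* and *Lsr* (0.08 to 0.10), and *Jag2* to *Arhgef19*, *Gm7694* and *Gpld1* (0.06 to 0.07). *Notch1* was nearest to *Myo1d*, *Sgsm2* and *Espl1* (0.04 to 0.07), and *Jag1* to *Chd7*, *Aff1* and *Zcwpw1* (0.06 to 0.07). The nearest genes were *Rpap1*, *Eps15l1* and *Galt* for *Notch2*, *Pgap3*, *Prmt7* and *4930578C19Rik* for *Dll1*, and *Sh3glb1*, *Nt5c2* and *Xrcc6* for *Hes1*, at 0.01 to 0.04. Over 5 libraries these values describe likeness only.

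The direction of all 10 members depended on what the libraries were scaled to, and each of them turned on 1 of 2 other scales. Scaling on the pan-leukocyte list moved the median log2 fold change of all genes to -2.15, and scaling on the keratinocyte lists moved it to 1.70. *Hey1* was at -0.32 (adjusted p = 0.692 by edgeR) on the leukocyte scale and at 3.38 on the keratinocyte scale, above the median of all genes on both. *Jag1* was at -1.84 on the leukocyte scale, and the other 8 members turned to values between 0.08 (*Notch3*) and 1.72 (*Notch2*) on the keratinocyte scale. Relative to the shifted median, *Notch3* remained below the median of all genes on both scales, at -3.78 and 0.08.

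**Figure D4:**
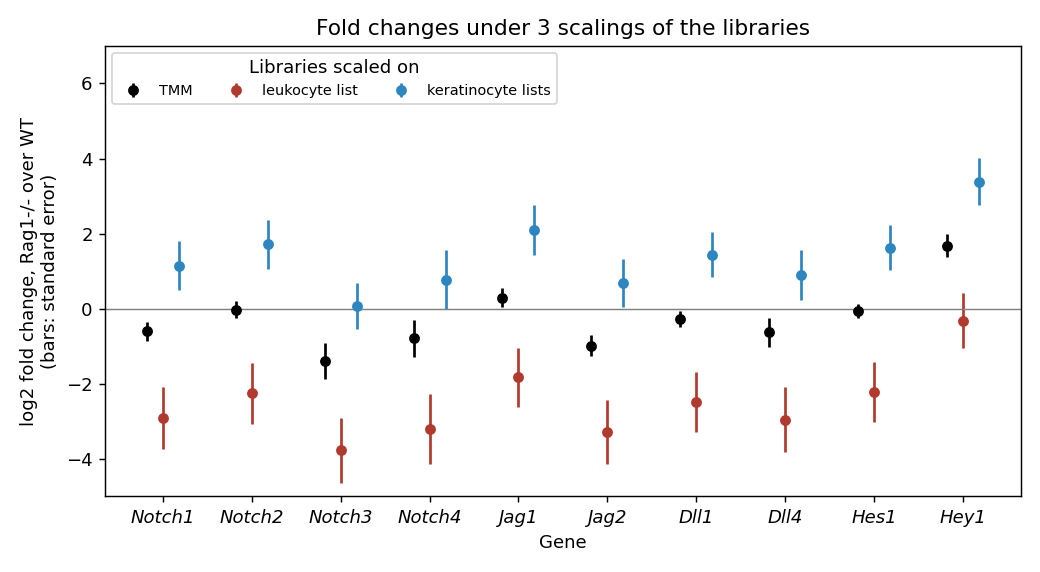
log2 fold change, libraries labelled Rag1-/- over WT, of the 10 Notch genes with libraries scaled by TMM (black), on the pan-leukocyte list (red) or on the keratinocyte lists (blue), with standard errors as bars. Hey1 is the highest of the 10 under each of the 3 scalings, at 1.68, -0.32 and 3.38, and Notch3 the lowest, at -1.40, -3.78 and 0.08.

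Of 50 other genes of the Notch pathway, 48 were tested, 5 rose (0 of them on the leukocyte scale) and 2 fell (0 on the keratinocyte scale) in the libraries labelled *Rag1*-/-, against 3.57% and 2.16% of all genes. The other 2, *Hes5* with 0 counts and *Ptcra* with 0 to 5 counts per library, were too low. The median log2 fold change of the 48 was 0.03, and 12 lay higher and 10 lower without overlap between the groups, about the shares of all genes (23.1% and 22.4%).

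Of the 5 glycosyltransferases, which add sugars to Notch and tune its choice of ligand, the Fringe enzymes *Lfng* and *Mfng* rose and 0 fell. *Lfng* had 15.4, 29.4 and 23.4 CPM in WT and 51.1 and 79.6 CPM in *Rag1*-/- pools 2 and 7, a change of 1.53 ± 0.32 (log2 ± SE, adjusted p = 0.0401 by edgeR). *Mfng* had 7.17, 13.9 and 13.2 CPM in WT and 29.8 and 33.3 CPM, a change of 1.47 ± 0.31 (log2 ± SE, adjusted p = 0.0412 by edgeR). Neither overlapped between the groups. For both WT pool 5 was the lowest library, as for *Hey1*, *Furin*, *Psen2*, *Tcf7* and the pan-leukocyte sum. The remaining Fringe gene, *Rfng*, had a log2 fold change of -0.48 (adjusted p = 0.217 by edgeR). *Pofut1*, which adds fucose to Notch and had the highest CPM of the 5 over all libraries, though not per length, was at 46.0, 43.6 and 42.4 CPM in WT and 74.5 and 55.9 CPM, with a change of 0.57 ± 0.20 (log2 ± SE, adjusted p = 0.128 by edgeR).

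Of the 10 proteases and protease subunits, *Furin* and *Psen2* rose and 0 fell. *Furin*, which cuts the Notch precursor among many other proteins, had the highest CPM of the 10, at 471, 943 and 613 CPM in WT and 2488 and 2124 CPM in the libraries labelled *Rag1*-/-. Both were more than any WT library, with a change of 1.77 ± 0.33 (log2 ± SE, adjusted p = 0.0335 by edgeR). *Psen2*, a catalytic subunit of gamma-secretase, had 17.9, 30.1 and 28.3 CPM in WT and 68.1 and 67.2 CPM, a change of 1.41 ± 0.25 (log2 ± SE, adjusted p = 0.0328 by edgeR).

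Of the 9 genes of the nuclear complex, 0 rose and *Maml3*, a Mastermind-like coactivator, fell. *Maml3* had 56.1, 42.0 and 31.4 CPM in WT and 13.3 and 14.4 CPM in *Rag1*-/- pools 2 and 7, a change of -1.64 ± 0.29 (log2 ± SE, adjusted p = 0.0319 by edgeR). *Rbpj*, outside the naming rule and picked after its values were seen because all receptors signal through it, had 46.5, 69.2 and 65.7 CPM in WT and 171 and 93.6 CPM. The test did not call it (change 1.13 ± 0.30, log2 ± SE, adjusted p = 0.0715 by edgeR), whereas DESeq2 did (1.10, adjusted p = 0.0139).

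Among the 7 other targets tested, *Tcf7* rose and *Myc* fell. *Tcf7*, a transcription factor of T cells and innate lymphoid cells, had 46.4, 101 and 75.0 CPM in WT and 369.8 and 297 CPM in *Rag1*-/- pools 2 and 7, a change of 2.17 ± 0.33 (log2 ± SE, adjusted p = 0.0306 by edgeR). *Myc*, a growth regulator of most dividing cells, had 265, 238.7 and 225 CPM in WT and 106 and 121 CPM, a change of -1.10 ± 0.20 (log2 ± SE, adjusted p = 0.0329 by edgeR). *Il2ra*, which had the highest CPM of the 7 when averaged over the 5 libraries, though not within WT or per length, encodes CD25 and is also in the ILC2 list. It had 31.5, 122 and 102 CPM in WT and 380.1 and 357 CPM, and was not called (change 2.11 ± 0.50, log2 ± SE, adjusted p = 0.0533 by edgeR), whereas DESeq2 called it (2.09, adjusted p = 0.000852).

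Of the 4 other ligands and the 13 ubiquitin ligases and trafficking genes, 0 passed in edgeR. *Dlk2*, the highest of these ligands in CPM, was without overlap at 16.7, 13.4 and 12.8 CPM in WT and 5.66 and 8.15 CPM in the libraries labelled *Rag1*-/- (change -1.03 ± 0.29, log2 ± SE, adjusted p = 0.0767 by edgeR). DESeq2 called it (-1.05, adjusted p = 0.00901). *Mib1*, a ubiquitin ligase that ligands need for their uptake and the highest of the 13 in CPM over all libraries, though not per length, overlapped at 167, 236 and 202 CPM and 237 and 176 CPM (change 0.03 ± 0.24, log2 ± SE, adjusted p = 0.952 by edgeR).

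Scaled on the pan-leukocyte list, *Lfng*, *Mfng*, *Furin* and *Psen2* turned to -0.48, -0.52, -0.26 and -0.63 and *Tcf7* to 0.17, so that 0 of the 5 passed (adjusted p of 0.430 to 0.831, edgeR), while *Maml3* and *Myc* remained called lower. On that scale 12439 of 19011 genes were called lower and 16 higher, a shift that these 7 genes shared with all genes. On the keratinocyte scale *Maml3* and *Myc* were at 0.096 and 0.60 and were not called. When any 1 WT library or *Rag1*-/- pool 2 was left out, 0 of the 7 passed, as for all genes.

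**Figure D5:**
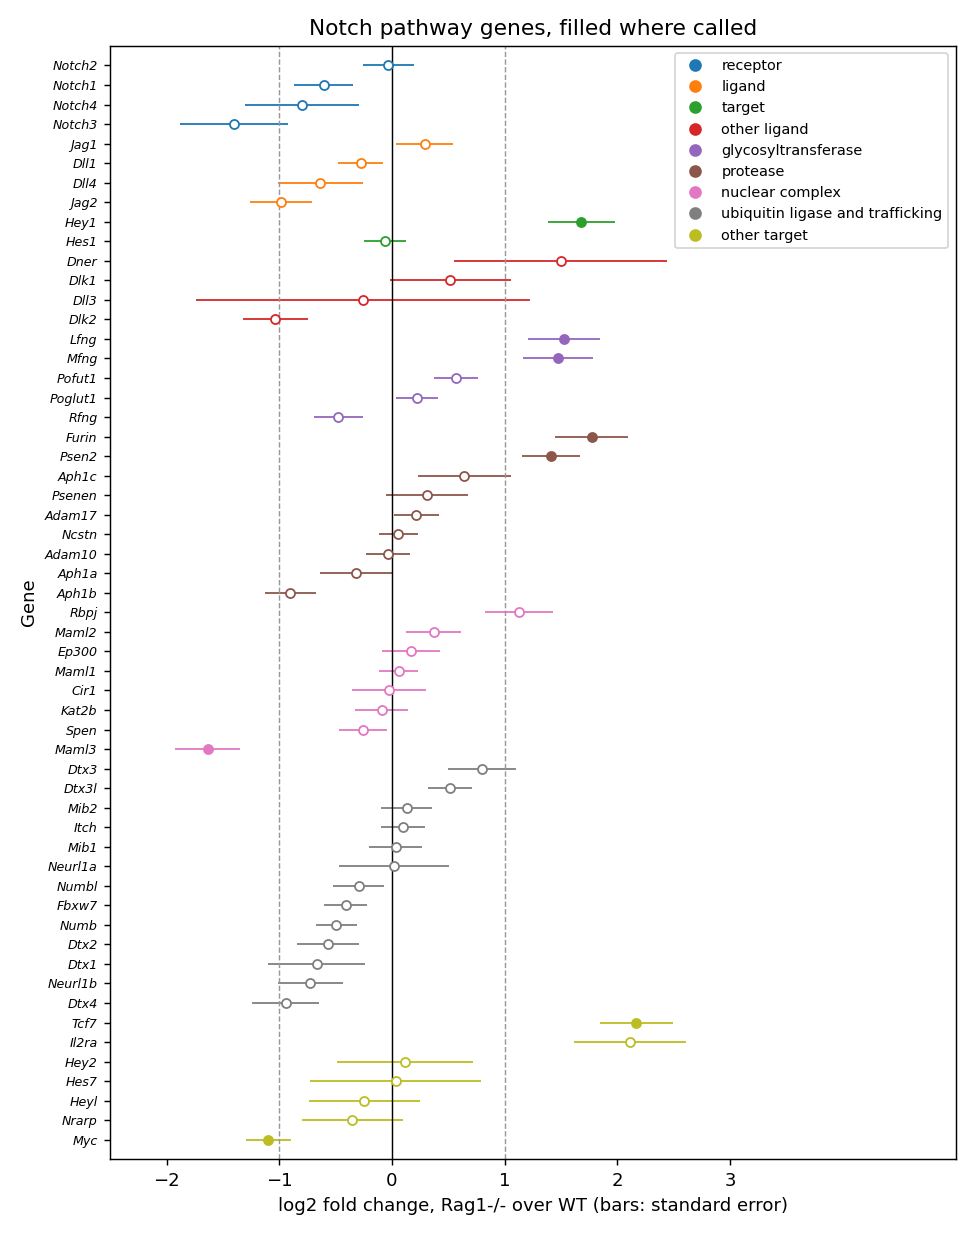
log2 fold change, libraries labelled Rag1-/- over WT, of the 10 Notch genes and 46 of the other pathway genes tested, grouped and coloured by role, with standard errors as bars, filled points for genes called and dashed lines at a change of 1. Tcf7 is highest at 2.17 and Maml3 lowest at -1.64.

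Exons of 5 members overlap another annotated gene on GRCm38. *Notch1*, *Notch3*, *Dll1* and *Dll4* do so with a gene on the opposite strand, and the library kit does not mark strand. *Notch2* shares 541 bases with *Gm42820* on its own strand. The overlapping genes had 0 to 78 counts in a library, the highest being *A930024N18Rik* over *Dll1*.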

How the data were processed

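RNA of sorted dermal cells was sequenced in 5 libraries, 3 WT and 2 *Rag1*-/-, grouped by their genotype labels. Per the labels, reads of poly(A) libraries were aligned to GRCm38 with STAR 2.5 and counted with featureCounts 1.5.0-p1, and the strand setting is not given in the sources used here. The authors deposited raw counts per gene, used for all main values, and a normalized signal, close to counts over a size factor, used in 1 alternative. The deposited transcript length is another value, of 1 transcript per gene, and was not used. Total counts were 8050562 to 39477243.

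Genotypes were compared over all genes with edgeR 4.0.16 (filterByExpr, TMM, quasi-likelihood F test, adjustment after Benjamini and Hochberg) in R 4.3.3, checked on simulated data. A call needed an adjusted p under 0.05 and a log2 change above 1 in size. TPM was computed from union exon lengths of GENCODE M21 (GRCm38), found for 47310 of 47729 genes. Promoters of 8 members, all but *Hes1* and *Hey1*, were in the RefSeq table used. Alternatives were RLE scaling, library size alone, scaling on marker lists, no filter, a minimum of 10 counts per library, DESeq2 1.42.0, a robust fit, limma 3.58.1 on log2(signal + 1), calls on the adjusted p only, edgeR's glmTreat at a log2 change of 1, thinning to the smallest total, and each library left out. Named were all members, pathway genes called, the gene of highest mean CPM in each pathway group, the 3 nearest genes of each member (mean CPM of at least 1) and the leading gene of a marker list. Some named genes are not reported here. Members and lists were chosen with earlier results of these data known.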

Additional observations from a re-analysis of the deposited data

How the results depend on the processing

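No paired analysis was possible because the WT and *Rag1*-/- pools share no replicate number. Thinning all libraries to the total of *Rag1*-/- pool 2 called 749 genes higher and 499 lower of 14936 tested, *Hey1* among them. What depth limits most is a low member such as *Notch4*, at 15 counts in that pool. Scaled on the pan-leukocyte list, 0 members were called higher and 9 lower, 0 pathway genes higher and 31 lower, and 10 members did not overlap, where 16 of 19011 genes were called higher and 12439 lower and 86.6% of all did not overlap. On the keratinocyte lists these were 5 and 0 members, 30 and 0 pathway genes, and 9 members without overlap, beside 10598 of all genes called higher, 61 lower and 71.9% without overlap. These 2 scales moved the median log2 fold change of all genes to -2.15 and 1.70, and single genes by unequal amounts. The test against a log2 fold change of 1 called 0 members, 0 pathway genes in either direction and 0 of all genes, with 1635 genes at an unadjusted p under 0.05. Without the filter 2 members and 4 pathway genes were called lower, beside 1488 of 29909 genes tested. With at least 10 counts in every library 1 member was called lower, beside 641 of 14121 genes. With DESeq2 2 members were, beside 1240 of 19011 genes. Leaving out 1 library gave 0 to 1 members higher, 0 to 1 lower, 0 to 6 pathway genes higher, 0 to 4 lower, and 4 to 9 members without overlap, the last without *Rag1*-/- pool 7. Over all genes the share without overlap was then 51.4% to 79.0%, highest in that same omission. Reversed on the keratinocyte scale were *Notch1* (1.15), *Notch2* (1.72), *Notch3* (0.079), *Notch4* (0.77), *Jag2* (0.69), *Dll1* (1.44), *Dll4* (0.90) and *Hes1* (1.63), and on the leukocyte scale *Jag1* (-1.84) and *Hey1* (-0.32). *Notch2* ranged from -0.19 to 0.058 and *Hes1* from -0.16 to 0.024 with 1 library left out. Under the other alternatives 94 of 100 fold changes of members kept direction and call, 0 reversed, 1 lost and 5 gained a call. The robust fit, glmTreat and the calls on the adjusted p only gave the fold changes of the main fit. Their directions could therefore not reverse. All genes called were 1090, against 2453 with DESeq2, 1157 higher and 1488 lower without the filter, and 814 higher and 1595 lower without *Rag1*-/- pool 7, and the cause was not tested.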
